A study of Mus musculus with 6 samples.

Results

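The constitutive proteasome subunits are the 35 genes that encode the standard form of the 26S proteasome, its base chaperones and its nuclear activators. They were taken from the deposited table by gene symbol, with the subunits of the interferon-induced immunoproteasome left out. All 35 were among the 16022 symbols of the table, and all 35 passed the filter on low counts, which left 12875 genes. The 35 comprise 14 subunits of the core particle, namely 7 alpha and 7 beta subunits, and 17 subunits of the regulatory cap, namely 6 ATPases and 3 other subunits of the base and 8 of the lid. The remaining 4 are the base chaperones Psmd5 and Psmd9 and the activators Psme3 and Psme4.

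RNA was sequenced from LSK cells of mouse bone marrow. This sort keeps cells without lineage markers but with c-kit and much Sca-1, among them the hematopoietic stem cells. There were 3 libraries from HDAC6 knockout (KO) samples and 3 from wild-type (WT) samples. The sources used here do not give the strain, age, sex, the deleted part of Hdac6, whether the deletion is limited to blood cells, or whether each sample is a separate animal, so the p-values rest on the spread between libraries, which may be technical. HDAC6 is a mainly cytoplasmic deacetylase with a ubiquitin-binding zinc finger, and the comparison of KO with WT is the only one in the design.

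The proteasome degrades proteins tagged with ubiquitin. Its core is a barrel of stacked rings: outer alpha rings form the gate, and inner beta rings carry the proteolytic sites of Psmb5, Psmb6 and Psmb7. The cap binds the tagged protein, removes the ubiquitin and threads the unfolded chain into the core with a ring of ATPases. Hematopoietic stem cells are known for low rates of protein synthesis and for depending on protein quality control.

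Total counts per library ran from 27253030 to 28743672 in KO and from 25993971 to 27371323 in WT. Hdac6 measured 9.62, 7.69 and 11.3 CPM in KO replicates 1, 2 and 3, against 68.0, 58.2 and 54.3 CPM in WT replicates 1, 2 and 3. CPM is the count relative to library size, after TMM scaling. Hdac6 was the 1 gene called by the edgeR quasi-likelihood test at a Benjamini-Hochberg adjusted p under 0.05 over all genes, with an adjusted p of 0.000594 and a log2 fold change of -2.66 (SE 0.19). The genes of the sort gate were both detected in every library. Kit, which encodes c-kit, stood at 725, 817 and 1082 CPM in KO and 1323, 1367 and 1127 CPM in WT, while Ly6a (the gene of Sca-1) stood at 82.1, 119 and 119 CPM in KO and 60.3, 68.7 and 66.2 CPM in WT. In both the groups did not overlap, and edgeR gave each an adjusted p of 0.298, while DESeq2 gave 0.0471 for Kit and 0.00718 for Ly6a. The summed level of 8 neutrophil markers ran from 18.3 to 37.2 CPM in KO and from 42.7 to 109 CPM in WT, and DESeq2 called 3 of the 8 lower and 0 higher, against 0 called by edgeR. Sums of macrophage markers ran from 119 to 286 CPM in KO and 100 to 126 CPM in WT, those of B cell markers from 61.6 to 83.7 CPM in KO and 53.4 to 74.0 CPM in WT, and those of erythroid markers from 31.6 to 64.0 CPM in KO and 35.9 to 64.4 CPM in WT. The T and natural killer list summed to between 268 and 355 CPM in KO and between 264 and 320 CPM in WT, most of it Nkg7, which had a log2 fold change of -0.029. Its other 4 tested markers were higher in mean in KO, with DESeq2 calling 3 of them and edgeR 0. Il2rb, a receptor chain of natural killer and T cells, measured 8.78, 23.6 and 33.3 CPM in KO and 2.87, 5.76 and 5.15 CPM in WT, without overlap (2.25, edgeR adjusted p = 0.298, DESeq2 adjusted p = 8.72e-05). Ncr1, Gzma and Prf1 had log2 fold changes of 2.29, 3.16 and 3.77, the last with a count of 0 in WT replicates 1 and 2. All 3 stayed under 15 CPM in every library. In Ncr1 and Gzma the groups overlapped. KO replicate 1 stood within the WT range for Ncr1, at 1.62 CPM, and below all WT libraries for Gzma, at 0.294 CPM. Of the list's 8 markers, Cd3d, Cd3e and Cd3g, which encode the T cell receptor complex, did not pass the filter on low counts. The part of these cell types and of the gate genes in the results was not tested. In bulk RNA, fewer cells of a type and less RNA per cell cannot be told apart.

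Proteasome subunit mRNAs had slightly higher means in KO across the core and the cap, but 0 of the 35 passed the edgeR test. The 14 core subunits had log2 fold changes from 0.04 to 0.32 with a median of 0.23, and the 17 cap subunits from 0.01 to 0.46, also with a median of 0.23. All 31 were above 0, against 49.5% of all genes tested, whose median was -0.003. With library size alone as scaling, Psmb6 and Psmd4 stood below 0 (-0.035 and -0.062), 31 of the 35 genes stood above it, and 39.7% of all genes tested were above 0. Over all genes the edgeR test called 0% higher and 0.00777% lower. At an unadjusted p under 0.05 it counted 12 of the 35 subunit genes higher and 0 lower, against 7.24% and 6.15% of all genes tested. DESeq2 also called 0 of the 35, while it called 0.897% of genes higher and 0.456% lower. The lowest adjusted p among the 35 was 0.298 by edgeR and 0.0902 by DESeq2, both for Psmd3.

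**Figure D1:**
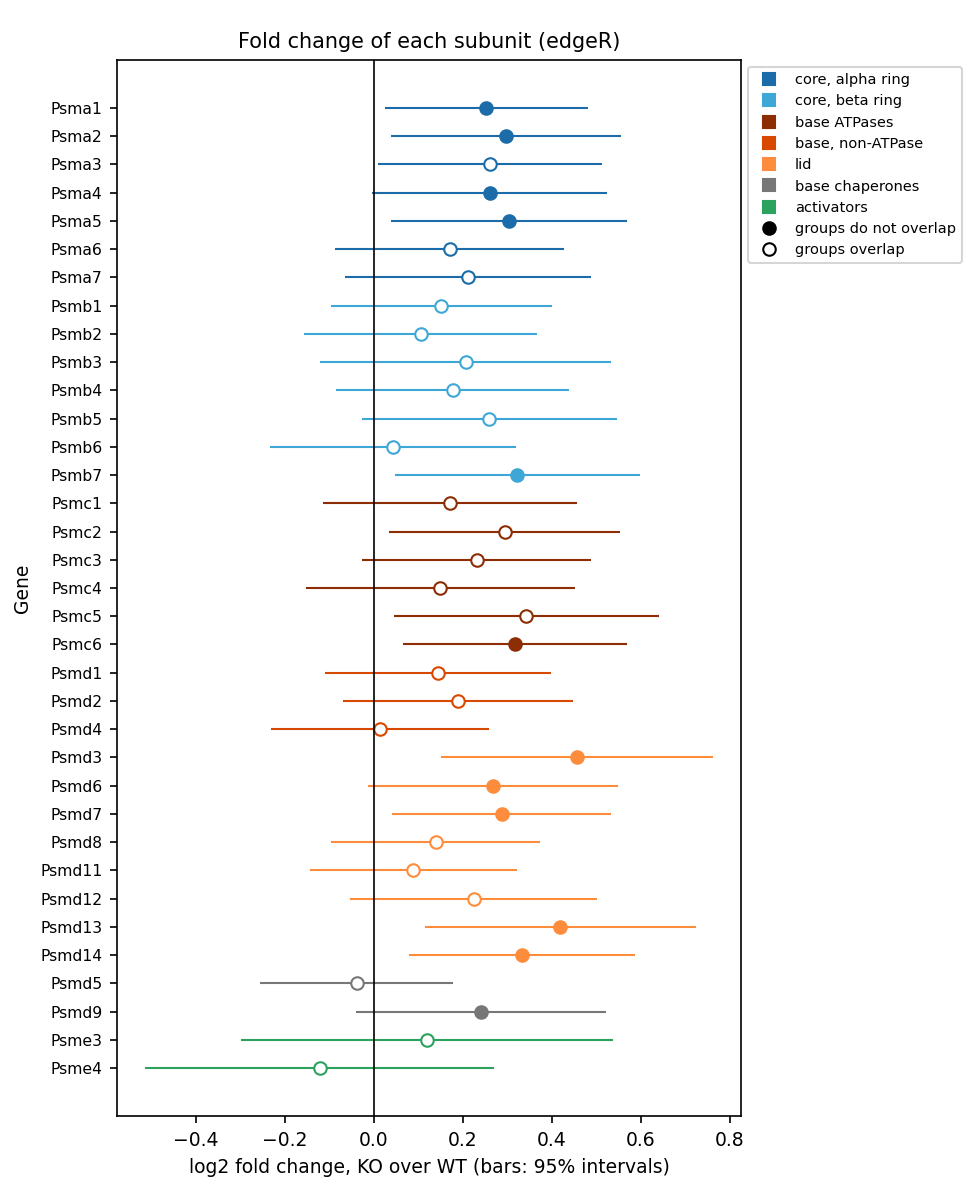
Log2 fold change of KO over WT for each of the 35 genes, with 95% intervals from the edgeR quasi-likelihood fit; filled points mark genes whose 3 KO libraries all lie above the 3 WT libraries. The 14 core and 17 cap subunits all lie above 0, from 0.01 for Psmd4 to 0.46 for Psmd3, and Psmd5 and Psme4 lie below 0 (with library size alone, Psmb6 and Psmd4 lie below 0 too).

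The libraries did not share the difference equally, and KO replicate 3 also stood apart from its group over all genes. The chi-square statistic over its degrees of freedom, between the counts of a pair of libraries, was 58.4 and 53.8 for KO replicate 3 against KO replicates 1 and 2, but 35.5, 34.3 and 25.8 against WT replicates 1, 2 and 3. That last pair was the closest of all, and WT libraries lay at 35.1 to 39.2 from each other. Taking each gene relative to its WT mean, the median core subunit stood at 1.32-fold, 1.20-fold and 0.988-fold in KO replicates 1, 2 and 3, and the median cap subunit at 1.31-fold, 1.18-fold and 1.06-fold. The WT libraries lay between 0.959-fold and 1.03-fold for the core and between 0.962-fold and 1.04-fold for the cap. KO replicate 1 was thus the highest library, KO replicate 2 followed, and KO replicate 3 lay within the WT range for the core and just above it for the cap (with library size alone, within it for both).

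The same order held gene by gene. In 33 of the 35 genes KO replicate 1 exceeded KO replicate 2 and KO replicate 2 exceeded KO replicate 3, an order found in 23.6% of all genes tested. With library size alone the order also held in 33, and in 18% of all genes tested. KO replicate 1 was the highest of the 6 libraries in 32 of the 35, against 22.8% of all genes. The exceptions were Psmd4, Psmd5 and Psme4, each highest in WT replicate 1. KO replicate 3 lay above all WT libraries in 12 genes, within their range in 15 and below it in 8. Over all genes tested the shares were 22.4% above, 56% within and 21.6% below, so the number of subunit genes below was near that background.

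**Figure D2:**
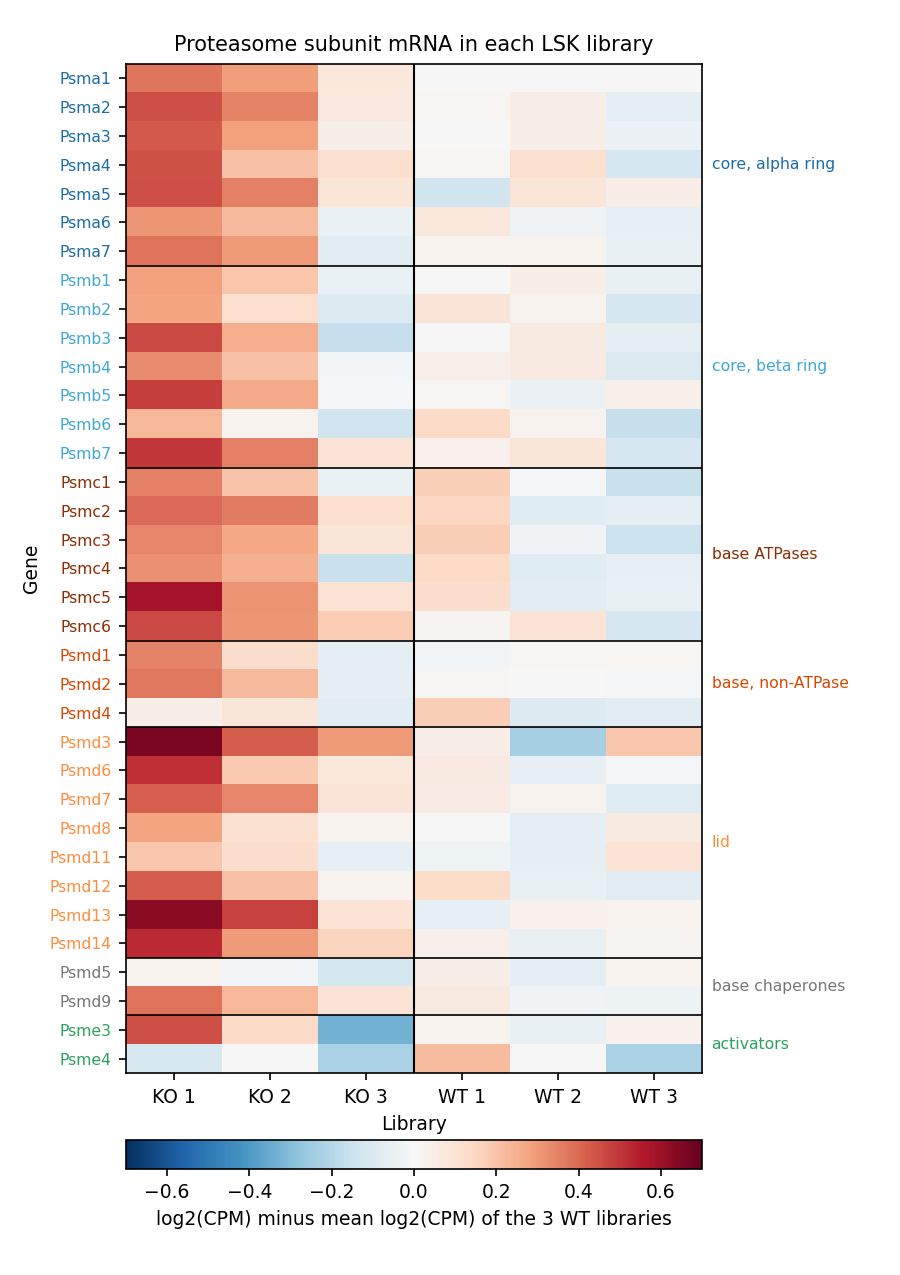
Each cell is log2 CPM of a gene in a library minus the mean log2 CPM of that gene in the 3 WT libraries; KO libraries are on the left and WT libraries on the right of the vertical line. Red is strongest in KO replicate 1 and weaker in KO replicate 2, and KO replicate 3 is close to the WT libraries for most genes.

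The groups did not overlap, with KO higher, in 12 of the 35 genes, against 8.86% of all genes tested, and in 0 with KO lower, against 9.7%. These were 5 core subunits (Psma1, Psma2, Psma4, Psma5 and Psmb7), 6 cap subunits (Psmc6, Psmd3, Psmd6, Psmd7, Psmd13 and Psmd14) and the base chaperone Psmd9. With library size alone the number was 7, against 5.94% of all genes, and with the deposited FPKM also 7, against 6.09%. With both, 1 gene, Psmd5, had non-overlapping groups with KO lower. The share of all genes with KO lower was not taken on these scales. There, 39.7% (library size alone) and 40.7% (FPKM) of all genes tested were above WT, so this 1 gene cannot be set against a background. Without KO replicate 3 the number was 31 of 35, against 20.3% of all genes, and the core and cap medians were 0.34 and 0.32. Without KO replicate 1 both medians were 0.13. The edgeR test called 0 of the 35 with library size alone, without KO replicate 3 and without KO replicate 1, and limma called 0 on log2(FPKM + 1).

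Among the core subunits, the alpha ring, whose tails gate the entry to the barrel, had a median of 0.26 on the log2 scale. Of its 7 genes, 4 were free of overlap with KO higher, against 8.86% of all genes tested. With library size alone, 1 of the 14 core subunits was free of overlap, against 5.94% of all genes tested. Psma5 measured 320, 298 and 248 CPM in KO replicates 1, 2 and 3, against 214, 247 and 241 CPM in WT replicates 1, 2 and 3. KO replicates 1 and 2 stood well above WT, while KO replicate 3 exceeded WT replicate 2 by less than 1 CPM. Its log2 fold change was 0.30 (SE 0.12, unadjusted p = 0.0290, edgeR adjusted p = 0.339). Psma2 measured 303, 283 and 233 CPM in KO and 224, 229 and 212 CPM in WT, and its log2 fold change was 0.30 (SE 0.12, adjusted p = 0.337). Its KO group lay above WT, with KO replicate 3 nearest to it. Psma1 showed how little the WT libraries could vary: it measured 487, 461 and 395 CPM in KO, against 375, 376 and 377 CPM in WT. Psma3 (0.26), Psma4 (0.26), Psma7 (0.21) and Psma6 (0.17) completed the ring, and in Psma7 KO replicate 3 lay below all WT libraries.

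In the beta ring the median was 0.18 and 1 of 7 genes was free of overlap, against 8.86% of all genes tested. The difference between the alpha and beta rings was not tested. The beta subunits with a proteolytic site had unlike values, and differences between them were not tested. Psmb7, the trypsin-like subunit, measured 220, 200 and 167 CPM in KO and 160, 165 and 144 CPM in WT, a log2 fold change of 0.32 (SE 0.12, unadjusted p = 0.0259, adjusted p = 0.333). Psmb5, the chymotrypsin-like subunit and main target of bortezomib, measured 243, 209 and 172 CPM in KO and 174, 169 and 178 CPM in WT. KO replicate 3 lay inside the WT range, and the log2 fold change was 0.26 (SE 0.13, adjusted p = 0.402). Psmb6, the caspase-like subunit, measured 305, 265 and 236 CPM in KO and 286, 264 and 233 CPM in WT, and its groups overlapped almost fully. Its fold was 1.03, with a 95% interval from 0.851 to 1.25. The non-catalytic Psmb3 (0.21), Psmb4 (0.18), Psmb1 (0.15) and Psmb2 (0.11) lay between, and all overlapped.

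Psmb5, Psmb6 and the base chaperone Psmd9 share a sequence feature near their start sites. The motif TGACNNNGC is the core of the antioxidant response element, through which the transcription factors NFE2L1 and NFE2L2 are known to act, NFE2L1 being the one known to raise proteasome genes when the proteasome is inhibited. RefSeq promoter windows of GRCm38.p6, from 250 bases before to 50 after the start, were matched for 29 of the 35 genes and searched on both strands. Psmb1, Psmb2, Psmb7, Psmc3, Psmd3 and Psmd7 had no matched window. The motif counts thus leave out Psmd3, the gene with the highest fold change of the 35. The motif was in 6 of the 29 genes (20.7%), against 14% of 27025 genes with a window and 16.9% of the 10332 of these that were tested. The 6 were Psmb5, Psmb6, Psmc6, Psmd12, Psmd9 and Psme4. In 3 of them it lay wholly within the last 60 bases before the start, and these stretches are shown 5′ to 3′ with the motif in capitals.
Psmb5, chr14:54617996-54618055, minus strand: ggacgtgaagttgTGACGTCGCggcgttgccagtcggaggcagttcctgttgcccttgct
Psmb6, chr11:70525297-70525356, plus strand: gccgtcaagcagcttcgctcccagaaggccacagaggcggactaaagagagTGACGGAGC
Psmd9, chr5:123228130-123228189, plus strand: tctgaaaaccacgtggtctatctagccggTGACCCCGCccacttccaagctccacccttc

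The match begins 47 bases before the start in Psmb5, 9 in Psmb6 and 31 in Psmd9. Their log2 fold changes were 0.26, 0.04 and 0.24, so these genes included the flattest member of the core as well as genes near the median. In Psme4 the match begins 7 bases before the start but does not lie wholly before it. The log2 fold change of Psme4, -0.12, was the lowest of the 35 genes. In Psmc6 and Psmd12 the match begins farther away, 227 and 247 bases before the start. Their log2 fold changes were 0.32 and 0.22, and the groups of Psmc6 did not overlap. The motif CCAAT, also read as ATTGG, was in 11 of the 29 genes (37.9%), against 41.1% of all genes with a window. It was in 6 of 11 core genes and 4 of 14 cap genes. Of the 29 genes, 0 held both motifs, so the motifs did not overlap. Genes with both were also few in the background, 5.81% of all genes with a window and 7.67% of those tested. Whether the motifs avoid each other was not tested. The letters are a description and do not show that a factor binds there.

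The base of the cap holds the ATPase ring. Psmc6 had the lowest p of the ring and was its 1 gene free of overlap, at 214, 192 and 176 CPM in KO, against 158, 166 and 143 CPM in WT. Its log2 fold change was 0.32 (SE 0.11, unadjusted p = 0.0188, edgeR adjusted p = 0.313). Psmc5 measured 261, 217 and 186 CPM in KO and 190, 166 and 168 CPM in WT, so KO replicate 3 lay below WT replicate 1, and its log2 fold change was 0.34 (SE 0.13, adjusted p = 0.337). Psmc2 (0.29), Psmc3 (0.23), Psmc1 (0.17) and Psmc4 (0.15) overlapped, and in Psmc4 KO replicate 3 lay below all WT libraries. The ring's median was 0.26.

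The non-ATPase subunits of the base had the lowest median of the cap, 0.14, and all 3 overlapped. Psmd2 and Psmd1 are the large scaffolds that dock ubiquitin shuttles and receptors. Psmd2 measured 621, 563 and 459 CPM in KO and 483, 480 and 478 CPM in WT, and Psmd1 438, 376 and 330 CPM in KO and 340, 347 and 348 CPM in WT. In both, KO replicates 1 and 2 were above and KO replicate 3 below all WT libraries, with log2 fold changes of 0.19 (SE 0.12, adjusted p = 0.491) and 0.14 (SE 0.11, adjusted p = 0.592). Psmd4, a ubiquitin receptor, measured 217, 224 and 200 CPM in KO, against 238, 198 and 200 CPM in WT. Its fold was 1.01, with a 95% interval from 0.851 to 1.20.

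The lid had the highest median of the cap, 0.28, and 5 of its 8 genes were free of overlap, against 8.86% of all genes tested. With library size alone, 5 of the 17 cap subunits were free of overlap, against 5.94% of all genes tested. Psmd3, a structural lid subunit, had the highest fold change of all 35. It measured 263, 223 and 205 CPM in KO, against 172, 142 and 190 CPM in WT, and WT replicate 2 was its lowest library. Its log2 fold change was 0.46 (SE 0.14, unadjusted p = 0.00755, edgeR adjusted p = 0.298), and its fold of 1.37 had a 95% interval from 1.11 to 1.69. Psmd13, another structural subunit, measured 250, 225 and 172 CPM in KO and 155, 165 and 164 CPM in WT, and its log2 fold change was 0.42 (SE 0.14, adjusted p = 0.307). KO replicate 1 was its highest library and KO replicate 3 exceeded WT replicate 2 only slightly.

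Psmd14, the zinc-dependent deubiquitinase that cuts the ubiquitin chain off the bound protein, measured 270, 231 and 210 CPM in KO and 193, 181 and 191 CPM in WT. All KO libraries were above all WT libraries, with a log2 fold change of 0.33 (SE 0.11, unadjusted p = 0.0152, adjusted p = 0.31). Psmd7, its inactive partner, measured 346, 328 and 276 CPM in KO and 270, 264 and 245 CPM in WT, and also showed no overlap (0.29). Psmd6 (0.27) was the fifth such gene of the lid. Psmd12 (0.22), Psmd8 (0.14) and Psmd11 (0.09) overlapped, and Psmd11 had a 95% interval of its fold from 0.905 to 1.25.

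The 4 genes outside the core and cap were mixed, with Psmd9 close to the medians of the core and cap and the others nearer to 0 or below it. Psmd5, a chaperone that holds ATPases during base assembly, measured 206, 200 and 186 CPM in KO and 208, 194 and 206 CPM in WT, with a log2 fold change of -0.039 (SE 0.10). Psmd9, another base chaperone, measured 67.4, 60.9 and 55.3 CPM in KO and 54.0, 50.9 and 50.5 CPM in WT. Its groups did not overlap, and its log2 fold change was 0.24 (SE 0.13, edgeR adjusted p = 0.42). The activator gene Psme3, which encodes a nuclear ring that opens the core without ubiquitin, was the most scattered, at 53.7, 43.1 and 31.3 CPM in KO, against 39.9, 37.9 and 40.1 CPM in WT. Its KO libraries surrounded the WT libraries, and its log2 fold change of 0.12 turned to -0.079 without KO replicate 1. Psme4, which encodes a large nuclear activator, measured 22.3, 24.1 and 20.6 CPM in KO and 28.0, 24.1 and 20.7 CPM in WT, a log2 fold change of -0.12 (SE 0.18).

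Levels between genes were compared per length, on the deposited FPKM (fragments per kilobase, scaled to sequencing depth). Averaged over the 6 libraries, core subunits ran from 232 FPKM for Psmb4 to 528 for Psma7, with a median of 307, and cap subunits from 103 for Psmd3 to 229 for Psmc3, with a median of 160. Thus the means of the 14 core subunits lay above those of the 17 cap subunits, although the edges touched. Of the 17, 0, 1 and 1 exceeded the lowest core subunit in KO replicates 1, 2 and 3. In WT replicates 1, 2 and 3 the numbers were 2, 0 and 0. The cap subunit Sem1, which is not among the 17, exceeded the lowest core subunit in each library. It measured 271, 273 and 239 FPKM in KO and 289, 277 and 256 FPKM in WT. Psma7 led the core at 554 ± 75.0 FPKM in KO and 503 ± 25.9 FPKM in WT, and Psmb2 followed at 417 ± 41.9 FPKM in KO and 408 ± 36.2 FPKM in WT (SD, n = 3 each). By the mean of the 6 libraries Psma1 came next, at 420 ± 32.4 FPKM in KO and 371 ± 5.83 FPKM in WT, and then Psmb3, at 409 ± 75.1 FPKM in KO and 373 ± 26.5 FPKM in WT. Within KO the levels of Psmb2, Psma1 and Psmb3 lay within each other's spread, and Psma1 was slightly above Psmb2 there. Psmd5 averaged 110 FPKM and Psmd9 23.7, and the activators were the lowest, Psme3 at 16.6 and Psme4 at 3.84 FPKM.

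The immunoproteasome list holds Psmb8, Psmb9 and Psmb10, which replace the catalytic beta subunits in many blood cells, and the activator genes Psme1 and Psme2. Of these 5, 4 were above WT, with a median of 0.15, against 49.5% of all genes tested. Psmb8 and Psme1 were free of overlap with KO higher, against 8.86% of all genes tested. KO replicate 1 exceeded 2 and 2 exceeded 3 in 1 of the 5, Psme2, against 23.6% of all genes tested. Psmb8, the counterpart of Psmb5, measured 671, 790 and 692 CPM in KO and 646, 616 and 639 CPM in WT, and its log2 fold change was 0.18 (SE 0.10, adjusted p = 0.431). All its KO libraries exceeded WT, with KO replicate 2 the highest. Psme2, which encodes part of an activator ring, measured 282, 268 and 238 CPM in KO and 232, 227 and 242 CPM in WT, with overlap (0.17, SE 0.10, adjusted p = 0.478), and 0 of the 5 passed the edgeR test at either the adjusted threshold or an unadjusted p under 0.05.

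The mRNAs of the catalytic subunits of both forms were abundant in these cells, while the assembled forms were not measured. Psmb8 measured 635, 758 and 695 FPKM in KO and 658, 637 and 639 FPKM in WT, above Psmb5 in each library. Psmb5 divided by Psmb8 gave 0.557, 0.408 and 0.383 in KO replicates 1, 2 and 3, against 0.414, 0.424 and 0.426 in WT. KO replicate 1 was above the narrow WT range and the other KO libraries below it. Psmb6 divided by Psmb9 gave 0.922, 0.608 and 0.560 in KO and 0.774, 0.724 and 0.691 in WT, in the same arrangement. Psmb7 divided by Psmb10 gave 1.97, 1.72 and 1.49 in KO and 1.38, 1.39 and 1.22 in WT, so its groups did not overlap. The exact two-sided permutation p was 0.1 for that ratio, the smallest that 3 against 3 can give, and 1 and 0.9 for the others.

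**Figure D3:**
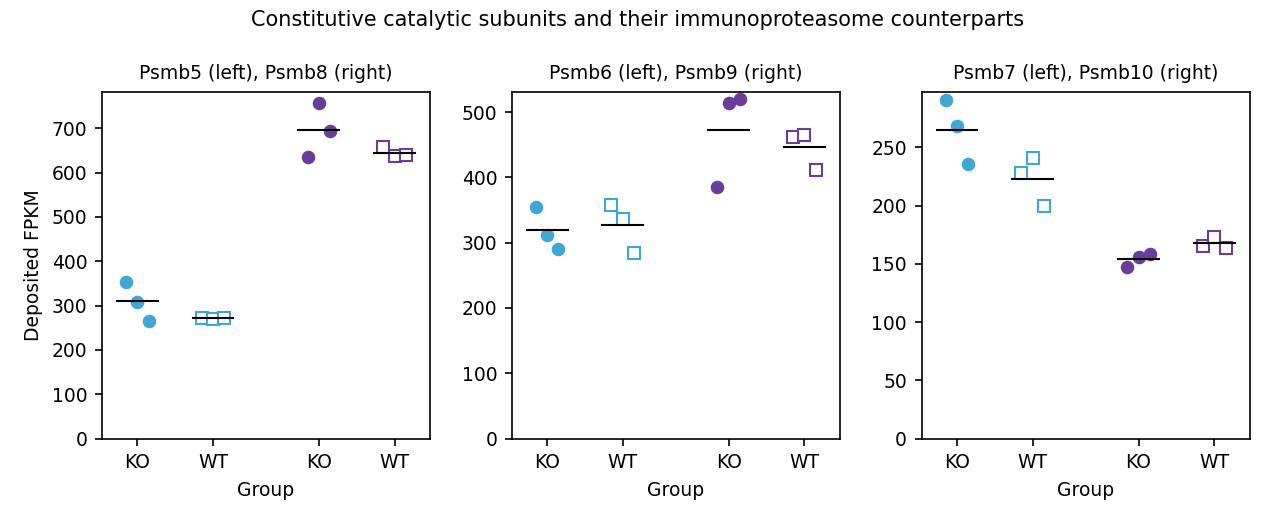
Deposited FPKM of the 3 constitutive catalytic subunits and of their immunoproteasome counterparts; filled circles are KO libraries, open squares WT libraries, in replicate order, and lines are group means of 3. Psmb8 exceeds Psmb5 in each library, while Psmb7 exceeds Psmb10, and only Psmb7 divided by Psmb10 separates the groups.

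Other genes of the pathway showed scattered values, with 0 passing the edgeR test over all genes. Of the other subunits, the ubiquitin receptor Adrm1 measured 195, 175 and 145 CPM in KO and 148, 139 and 145 CPM in WT (0.25), the testis-type alpha subunit Psma8 25.4, 14.4 and 22.8 CPM in KO and 14.3, 19.9 and 21.3 CPM in WT (0.18), and the cap subunit Sem1 had -0.011. Among 6 assembly factors tested, the median was 0.13 and 5 lay above WT. KO replicate 1 exceeded 2 and 2 exceeded 3 in all 6 (in 5 with library size alone), although 0 were free of overlap. Psmg2, a chaperone of the alpha ring, measured 83.4, 80.0 and 63.3 CPM in KO and 60.8, 66.3 and 50.3 CPM in WT (0.35, adjusted p = 0.359), and Psmg3 had 0.22. KO replicate 3 of Psmg2 lay inside the WT range.

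Of 12 proteasome-associated genes, 9 were above WT with a median of 0.22. Txnl1, a thioredoxin-like protein bound to the cap, measured 234, 209 and 224 CPM in KO and 187, 185 and 189 CPM in WT (0.25, SE 0.10, adjusted p = 0.331). Rad23b, a shuttle for ubiquitin-tagged proteins, measured 29.5, 29.7 and 26.1 CPM in KO and 15.8, 20.3 and 25.2 CPM in WT (0.48, SE 0.20, adjusted p = 0.348). Both had non-overlapping groups, and neither followed the order of the KO libraries seen in the subunits. Of the 12 genes, 5 followed that order, against 23.6% of all genes tested.

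Among the genes known to control proteasome transcription, 6 of 10 tested were above WT with a median of 0.06. Ddi2, which encodes the protease that activates NFE2L1, measured 15.5, 19.5 and 8.16 CPM in KO and 8.01, 5.41 and 6.36 CPM in WT. Its groups did not overlap, KO replicate 3 being close to WT replicate 1, and its fold of 2.18 had a 95% interval from 1.32 to 3.62 (unadjusted p = 0.00633, adjusted p = 0.298). Nfyc, a subunit of the CCAAT-binding factor, had 0.20 (adjusted p = 0.418). Nfe2l1 itself measured 77.2, 68.1 and 88.7 CPM in KO and 67.1, 61.6 and 71.4 CPM in WT, with its highest value in KO replicate 3, where the subunits were lowest in KO. Nfe2l2 had a log2 fold change of -0.012.

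Ubiquitin genes were divided. Of 6 genes for ubiquitin and its activating enzymes, 2 were above WT and 4 below, with a median of -0.08. The polyubiquitin gene Ubb measured 3753, 3861 and 3696 CPM in KO, against 4573, 3985 and 4022 CPM in WT. Its KO libraries lay below WT, and the log2 fold change was -0.15 (SE 0.09, adjusted p = 0.469). Rps27a, which encodes ubiquitin fused to a ribosomal protein, was on the other side (0.17, SE 0.09, adjusted p = 0.43), also without overlap.

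A list of 12 cycling genes had the same order of libraries as the proteasome subunits. Its median stood at 1.42-fold, 1.26-fold and 1.10-fold of the WT mean in KO replicates 1, 2 and 3, and between 0.972-fold and 1.04-fold in the WT libraries. KO replicate 1 was the highest library in all 12 (in 11 with library size alone), against 22.8% of all genes tested. Of the 12, 11 were above WT, and 8 were free of overlap with KO higher, against 8.86% of all genes tested. The 1 gene below WT was Mki67, at 243, 214 and 201 CPM in KO and 234, 212 and 226 CPM in WT. Its log2 fold change was -0.030 (SE 0.11, edgeR adjusted p = 0.915). The edgeR test called 0 of the 12 and DESeq2 called 2 higher, Plk1 and Ccna2. The mitotic kinase gene Plk1 measured 178, 162 and 125 CPM in KO and 97.0, 103 and 110 CPM in WT (0.58, SE 0.14, edgeR adjusted p = 0.298, DESeq2 adjusted p = 0.0235), and the cyclin gene Ccna2 323, 259 and 206 CPM in KO and 154, 105 and 189 CPM in WT (0.81, SE 0.22, edgeR adjusted p = 0.298, DESeq2 adjusted p = 0.0206). Both followed the order of the KO libraries. The part of cell cycling in the levels of the proteasome subunits was not tested.

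**Figure D4:**
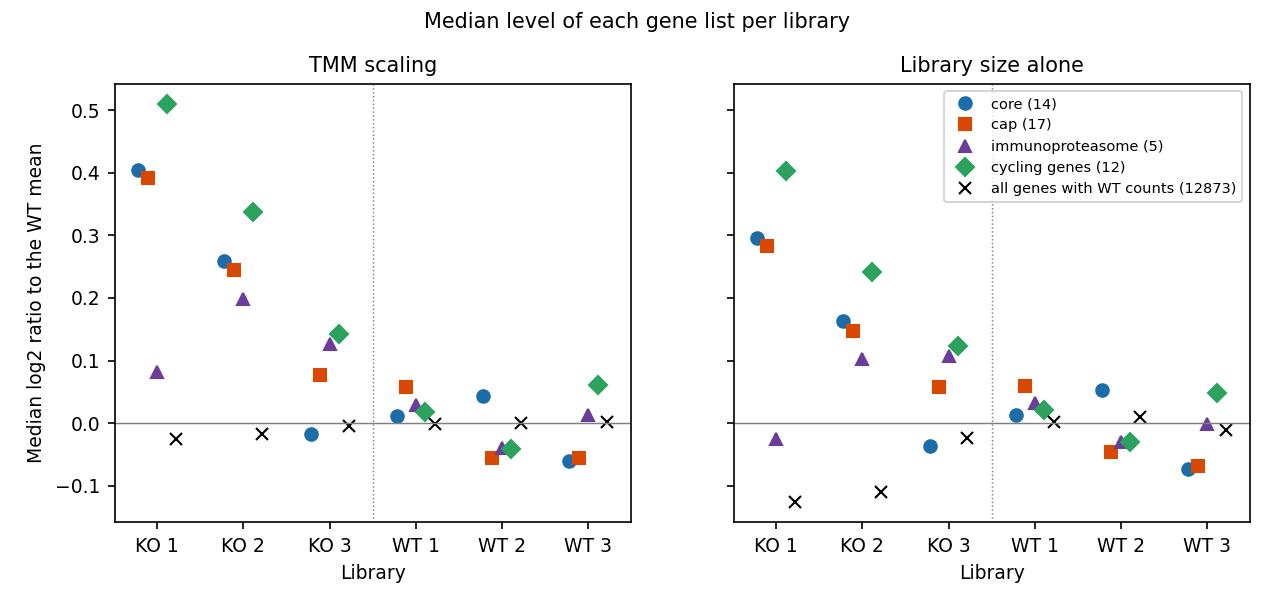
Median log2 ratio to the WT mean of the core, cap, immunoproteasome and cycling lists and of all genes with WT counts, per library, with TMM scaling on the left and library size alone on the right. Core, cap and cycling medians descend over KO replicates 1 to 3 under both scalings, while the immunoproteasome median does not, and all genes shift to -0.13 in KO replicate 1 with library size alone.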

How the data were processed

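The labels' protocols name Trizol extraction and standard Illumina libraries. Among the tools in the submitters' processing notes are featureCounts 2.0.3, HISAT2 2.2.1, DESeq2 and SAMtools 1.13, with the build GRCm39, without roles. For annotation, strand setting and the treatment of shared reads, the sources used here say nothing. Per the file headers, the deposited table holds a read count and an FPKM value per gene symbol and library. The deposited counts were treated as estimated counts, since many were not whole, and how the authors made them fractional is not stated. The share that was not whole was 19.6% to 20.9% per library (tolerance 1e-06), among the 35 genes in Psma3, Psma4 and Psme4, whose reads may be shared with other genes. Counts were rounded.

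KO was compared with WT by the edgeR 4.0.16 quasi-likelihood test in R 4.3.3 (robust dispersion, filterByExpr with minimum count 10, TMM, Benjamini-Hochberg over all genes, threshold 0.05). SE was taken as the size of the log2 fold change over the square root of the F statistic, and 95% intervals use the test's degrees of freedom. Alternatives were RLE, library size alone, no filter, DESeq2 1.42.0, limma 3.58.1 on log2(FPKM + 1), the replicate block and each library left out. The order of the libraries under other scalings was added after seeing the data. The scripts were tested on simulated counts.

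The 35 genes and the lists were chosen with earlier results of these data known. Genes given in every library were those with the lowest p per subcomplex, the catalytic subunits, chaperones and activators, and the 2 lowest p of each pathway list. Exceptions were Psmg3, Nfyc and Rps27a, which were among these but are given without their libraries. Mki67 is given as the 1 cycling gene below WT, outside this rule. Psma1, Psmd4, Psmd7, Psmd14, Nfe2l1, Nfe2l2 and Sem1 were added after their values were seen. RefSeq windows and GENCODE M21 (GRCm38) served for promoter letters and for which genes neighbour each other, since no GRCm39 annotation was used here. A count of 0 allows up to 3 counts, which came to 0.106 to 0.114 CPM, for counting error only. Pairs of libraries differed far beyond sampling noise (chi-square per degree of freedom 35.1 to 58.4 inside a group, 25.8 to 91.4 across groups), so no library was counted as a repeat.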

Additional observations from a re-analysis of the deposited data

How the results depend on the processing

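Across 12 alternatives the 35 genes gave 420 fold changes, 0 of them called, and 409 kept their direction. Those that turned were Psmb6 (-0.035 with library size alone, -0.029 with limma on log2(FPKM + 1), -0.057 to 0.13 with a library left out, below 0 without KO replicate 1 and without WT replicate 3), Psmd4 (-0.062 with library size alone, -0.052 with limma, -0.032 to 0.11 with a library left out, below 0 without KO replicate 2, WT replicate 2 or WT replicate 3), Psme3 (-0.079 without KO replicate 1, up to 0.30 without KO replicate 3) and Psmd5 (-0.070 without WT replicate 2, 0.0026 without KO replicate 3). Genes with non-overlapping groups numbered 7 higher and 1 lower with library size alone and with FPKM, against 12 and 0 with TMM scaling. With a library left out they numbered 12 to 31 higher and 0 to 1 lower. The share of all genes tested with KO higher also rose, from 8.86% to between 11.5% and 20.3% with a library left out. The counts of genes with KO lower are given here without such a share. Core medians ran from 0.13 to 0.34 and cap medians from 0.13 to 0.32 with a library left out, and genes above WT from 31 to 34. Over all genes DESeq2 called 120 higher and 61 lower, and edgeR without single libraries 0 to 30 higher and 1 to 14 lower, the most without KO replicate 3. The cause was not tested. The labels number the replicates, but same-numbered samples had correlations of deviations of 0.06, -0.06 and -0.17, and 1 of the 3 KO libraries correlated best with its own number, so the numbers were not taken as pairs. The replicate block gave core and cap medians of 0.22 and 0.23 and the same counts of calls. With 3 libraries a group, the 95% interval of the log2 fold change of Psma1, whose WT libraries hardly varied, still reached 0.23 to each side.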

Other observations

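Several proteasome genes start next to a gene on the other strand. By the gene order of GENCODE M21, 6 such neighbours with a start within 1 kb were tested, of which 4 were above WT, 2 below, and 0 passed the edgeR test over all genes. Dnajc2, a ribosome-associated chaperone that starts beside Psmc2, averaged 127 CPM in KO and 86.1 CPM in WT, with 0.56 on the log2 scale (SE 0.17, adjusted p = 0.298), and was the 1 neighbour free of overlap. Ftsj3, a factor of ribosomal RNA processing beside Psmc5, averaged 206 CPM in KO and 165 CPM in WT (0.32, SE 0.14, adjusted p = 0.372). Sirt3, a mitochondrial deacylase beside Psmd13, stood on the other side, at 129 CPM in KO and 166 CPM in WT (-0.36, SE 0.14, adjusted p = 0.341), while Psmd13 had 0.42. The annotation has Sirt3 and Psmd13 overlap on opposite strands, and without a stated strand setting their shared reads cannot be told apart. The same holds for Nek6 with Psmb7, Slc39a13 with Psmc3 and Htr2b with Psmd1, whose starts lie farther apart. Nek6 had 0.40 and Slc39a13 -0.41, both with non-overlapping groups. Htr2b had -0.38, at means of 0.364 CPM in KO and 0.477 CPM in WT. Mrpl32 beside Psma2 (0.12), Tbp beside Psmb1 (0.08) and Ss18l1 beside Psma7 (-0.00083) were close to 0.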
